A study of Caenorhabditis elegans with 9 samples.

Results

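The histone genes of *C. elegans* were read in 1 RNA-seq library of whole worms, young stage ADF replicate 1, in which young adult worms underwent alternative day fasting (ADF). Members were chosen by name alone, as the protein-coding genes whose RefSeq symbol is his- followed by a number. All 72 such genes had an entry among the 19959 protein-coding genes of the deposited table, which holds 45495 genes in all. The study's labels list 9 libraries, 3 each of young stage ADF, middle stage ADF and control. The labels give all of them as wild-type adult hermaphrodites kept at 20°C, with M9 as the treatment in every group including control, and the worms of the analysed library underwent ADF for 7 days, with feeding and fasting on alternate days according to the methods. The other 8 libraries were not analysed here. A single library, made from a large number of worms, carries no replicate error and allows no test against control, so the levels below describe that library and not an effect of ADF.

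Histones are the proteins around which DNA is wound. An octamer of the core histones H2A, H2B, H3 and H4 forms the nucleosome, and the linker histone H1 binds the DNA between nucleosomes. In animals, most core histone genes are intronless, stand in clusters of near-identical copies and are transcribed in S phase, and their messages typically end in a stem-loop rather than a poly(A) tail. Replacement histones, such as H3.3, are made from genes with introns and polyadenylated messages and enter chromatin outside S phase too. In an adult hermaphrodite, the germ line and the embryos it carries are the main places where DNA is replicated, because the somatic cells have stopped dividing.

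The deposited values are in FPKM, in which the fragments of a gene are scaled to its transcript length and to the library total. The library total behind the values was 18205113 fragments, so that 1 fragment on an H3 gene is worth 0.134 FPKM. Whole fragments were recovered for all 52 histone genes above 0 and added up to 23961. For 28 of them a single transcript length gave a whole number, and for the others the length nearest to the annotated one was taken among several. The 95% intervals below are exact Clopper-Pearson intervals on these fragments, and they cover counting error only. In this library, marker genes of adult tissues were present, with *rme-2*, the yolk receptor of oocytes, at 318 FPKM and *vit-2*, an intestinal yolk protein gene, at 1228 FPKM. Of 32 marker genes in 8 groups, which also cover sperm and early embryos, 26 reached 1 FPKM, as did 56.9% of all protein-coding genes. The sperm markers were low, with *msp-19* at 10.4 FPKM and *spe-11* listed at 0, and so were the markers of early embryos, of which *pes-10* was highest at 3.96 FPKM. An entry at 0 is not evidence of a silent gene in this table, since 7 of 75 ribosomal protein genes were listed at 0 as well.

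The 72 histone genes spanned the whole range from 0 to 587 FPKM. At or above 1 FPKM were 34 of them, or 47.2%, against 56.9% of all protein-coding genes, a share near that background. The median was 0.88 FPKM over the 72 genes and 1.94 FPKM over all protein-coding genes. At the top, 9 genes exceeded 50 FPKM, while 25 lay between 1 and 50 FPKM, 18 lay above 0 and under 1 FPKM, and 20 were listed at 0. For 20 of the genes above 0, the counting interval included 1 FPKM, so their side of this level was not settled at this depth. Together the histone genes held 0.242% of the summed FPKM, and the 6 highest of them carried 82.2% of the histone FPKM.

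**Figure D1:**
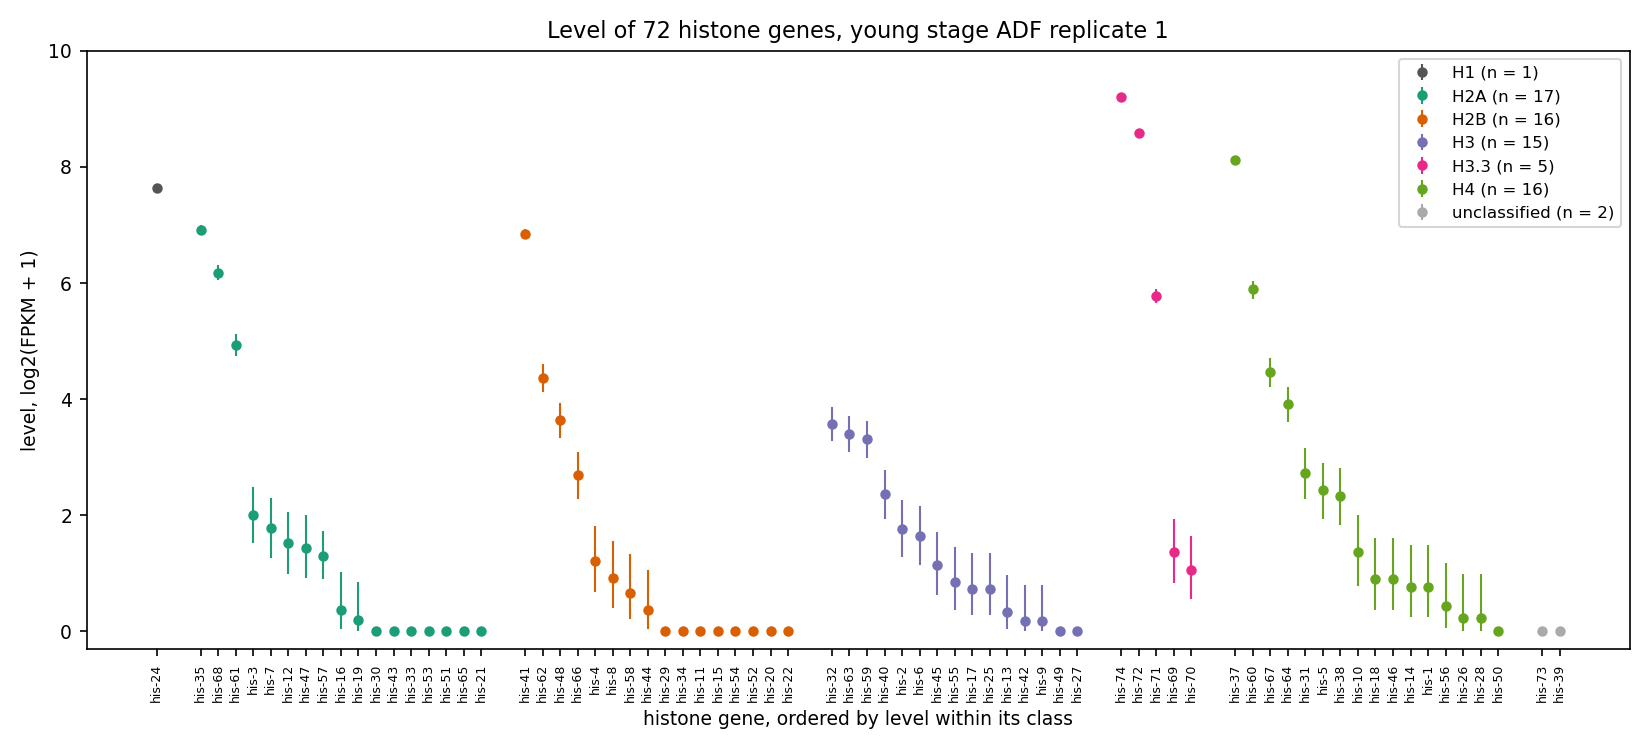
Level of each of the 72 histone genes in young stage ADF replicate 1, as log2(FPKM + 1), ordered within each class. Bars are 95% counting intervals and points at 0 are genes listed at 0, drawn without an interval; the genes *his-74*, *his-72*, *his-37*, *his-24*, *his-35* and *his-41* stand above all others.

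The histone class of each gene was assigned from its coding length without the stop codon, which differs among the core classes, being shortest in the H4 genes and longest in the H3 genes. *his-24* was taken as the H1 gene, and *his-69*, *his-70*, *his-71*, *his-72* and *his-74* were taken as H3.3 genes whatever their length. This gave 1 H1 gene, 17 H2A genes, 16 H2B genes, 15 H3 genes, 5 H3.3 genes and 16 H4 genes. *his-73* and *his-39*, with coding lengths of 138 and 201 bases, matched none of these lengths, stayed without a class and were both listed at 0.

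The H3.3 genes held 50.2% of the summed histone FPKM, from 5 of the 72 genes. *his-74* was the highest of the 72 genes, with 587 FPKM (95% interval 572 to 601) on 6194 fragments, above 99% of the protein-coding genes. Its 2 exons lie between 12659704 and 12660330 of chromosome V in WBcel235, on the minus strand. *his-72* had 382 FPKM (373 to 391) and is found on chromosome III, between 12367475 and 12369050, on the minus strand. It overlaps Y49E10.36 on the same strand, so fragments may be shared between them, which was not tested. *his-71* lies on chromosome X from 7981382 to 7982070 and had 53.8 FPKM (49.5 to 58.4). These 3 intervals were apart, and *his-74* was 1.54-fold above *his-72* and 10.9-fold above *his-71*.

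The other H3.3 genes, *his-69* and *his-70*, are intronless neighbours on chromosome III, and both were near 1 FPKM. *his-69* had 1.57 FPKM (0.785 to 2.81) on 11 fragments and *his-70* had 1.09 FPKM (0.468 to 2.14) on 8 fragments. Their intervals overlapped, and each was lower than those of *his-71*, *his-72* and *his-74*. The 3 H3.3 genes with introns were thus above the pair without. The class of this pair rests on the gene list and not on length, since the coding length of *his-69*, 381 bases, is that of the H2A genes, and that of *his-70*, 402 bases, is that of no class.

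The H3 genes, which encode the H3 used in S phase, all lay below the H3.3 genes with introns. Their 15 levels ran up to 10.96 FPKM with a median of 0.802 FPKM, and 7 of them, or 46.7%, reached 1 FPKM. This share was 56.9% for all protein-coding genes and 49.5% for those with a single-exon transcript, histone genes left out. The highest were *his-32* at 10.96 FPKM (8.72 to 13.6), *his-63* at 9.62 FPKM (7.53 to 12.1) and *his-59* at 8.95 FPKM (6.94 to 11.4), whose intervals overlapped. *his-9* and *his-42* were the lowest above 0, each with 0.134 FPKM on 1 fragment, and *his-49* and *his-27* were listed at 0. Thus the H3.3 genes accounted for 96.1% of the summed FPKM of H3 and H3.3 genes, and for 97.7% of the fragments (95% interval 97.4 to 97.9%). Without *his-74*, their share of the FPKM was 91.2%. The interval covers counting error only. Several H3 genes, such as *his-9*, share an Ensembl name with other copies, and the H3.3 genes that led have introns. The part of copy assignment and of RNA selection in this share was not tested.

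H4, the partner of H3 in the nucleosome, was led by 1 gene. *his-37* had 278 FPKM (266 to 289), which was 71.1% of the summed FPKM of the 16 H4 genes and 4.76-fold above the next gene, *his-60*, at 58.3 FPKM (52.2 to 64.9). *his-67* followed at 21.1 FPKM (17.5 to 25.3). The median of the class was 1.23 FPKM and 8 of the 16 genes reached 1 FPKM. This share was near the background, which was 56.9% for all protein-coding genes. It was 49.5% for those with a single-exon transcript, histone genes left out. At the low end, *his-26* and *his-28* had 0.176 FPKM on 1 fragment each, and *his-50* was listed at 0.

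Among the 17 H2A genes, *his-35* was highest at 120 FPKM (114 to 126), with 51.8% of the class, followed by *his-68* at 71.4 FPKM (65.2 to 77.9) and *his-61* at 29.6 FPKM (25.7 to 33.9). Those 3 intervals did not overlap. Below them the class fell off steeply, since the next gene, *his-3*, had 3.004 FPKM (1.86 to 4.59). *his-19* and *his-16* were lowest above 0, with 0.143 and 0.286 FPKM on 1 and 2 fragments. Listed at 0 were *his-21*, *his-30*, *his-33*, *his-43*, *his-51*, *his-53* and *his-65*.

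The H2B genes showed the same form. *his-41* had 114 FPKM (108 to 121), or 74.2% of the class, against 19.6 FPKM (16.4 to 23.3) for *his-62* and 11.5 FPKM (9.10 to 14.4) for *his-48*. The lowest above 0 were *his-44*, with 0.298 FPKM on 2 fragments, and *his-58*, with 0.591 FPKM on 4 fragments. *his-11*, *his-15*, *his-20*, *his-22*, *his-29*, *his-34*, *his-52* and *his-54* were listed at 0, so that 8 of the 16 genes had no value above it. Summed over genes, H2A held 11.4% of the histone FPKM, H2B 7.53%, H4 19.1%, H3 2.06% and H1 9.72%.

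*his-24*, the H1 gene among the members, had 198 FPKM (192 to 205) on 3446 fragments. It lies on the plus strand of chromosome X, from 14490094 to 14491119, with 2 exons. It overlaps M163.16 and M163.19 on the opposite strand, and whether fragments are shared with them was not tested. Of the 72 members, only *his-74*, *his-72* and *his-37* were higher.

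*his-35*, *his-41* and *his-37* stand side by side on chromosome V, within 2.9 kb from 9544659 to 9547607, and they led their classes. *his-35* and *his-41* are transcribed away from each other across 247 bases, and their intervals overlapped. *his-37* was 2.31-fold above *his-35* and 2.43-fold above *his-41*. An H3 gene is not among these neighbours. *his-37* overlaps *nstp-10* on the opposite strand and *his-41* overlaps C50F4.6 on the same strand, so fragments of these pairs may be shared, which was not tested.

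The annotated structure of the genes, which the choice of members did not use, ran with these levels. Every transcript of *his-24*, *his-35*, *his-37*, *his-41*, *his-71*, *his-72* and *his-74* has an intron in the Ensembl annotation. These 7 genes ranged from 53.8 to 587 FPKM with a median of 198 FPKM, held 84.9% of the histone FPKM, and included the 6 highest of the 72 members. The other 65 genes have at least 1 transcript of a single exon. They ranged from 0 to 71.4 FPKM with a median of 0.704 FPKM, and 27 of them, or 41.5%, reached 1 FPKM. The groups overlapped only at *his-71*, which was lower than *his-68* and whose interval overlapped that of *his-60*. Outside the histone genes, 49.5% of the 875 protein-coding genes with a single-exon transcript reached 1 FPKM, with a median of 0.964 FPKM. Of the 19002 genes with introns, 57.3% did, with a median of 2.002 FPKM. Among these 65 genes, called intronless here, *his-57* is an exception in that other transcripts of it have introns and it has an annotated UTR. The remaining 64 have no annotated UTR, so they were measured over their coding sequence only. The labels and the methods name different library kits, and whether polyadenylated RNA was selected is not given in the sources used here. The part of RNA selection in these levels was not tested.

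**Figure D2:**
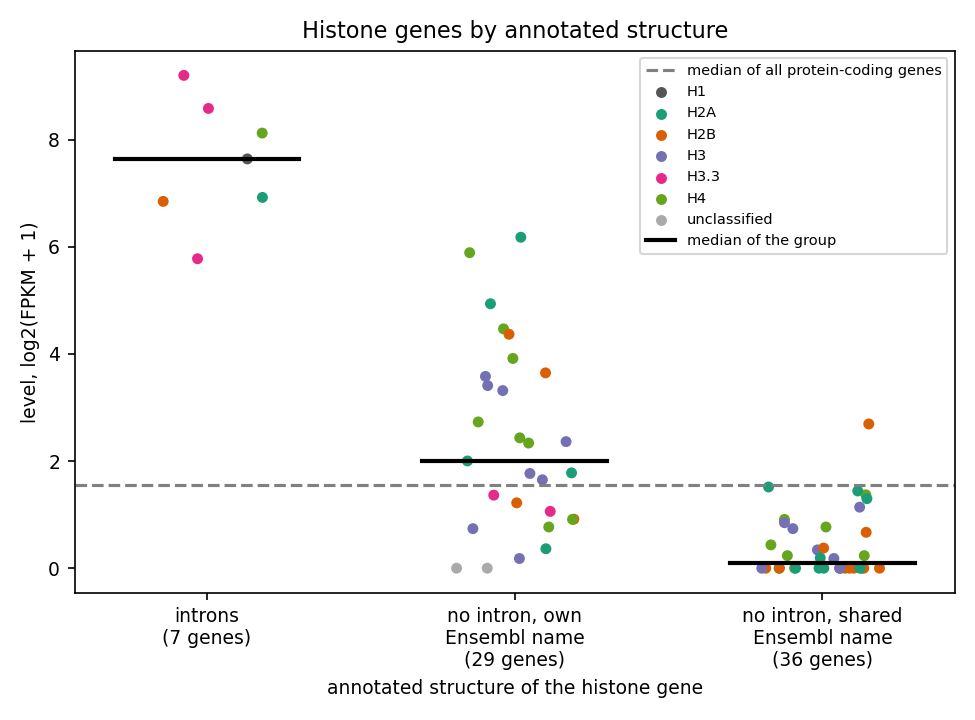
Level of the histone genes as log2(FPKM + 1), by annotated structure: 7 genes with introns, 29 intronless genes with an Ensembl name of their own and 36 intronless genes that share a name with another copy. Black bars are medians (198, 3.004 and 0.0668 FPKM), the dashed line is the median of all protein-coding genes (1.94 FPKM), and 18 of the 20 genes listed at 0 are in the third group.

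Many of the low values belonged to genes that share a name with another copy. The Ensembl annotation gives a single name to several loci in 14 cases, which cover 36 of the histone genes with up to 4 genes under 1 name. These 36 genes summed to 18.5 FPKM on 132 fragments, with a median of 0.0668 FPKM. Among them, 18 were listed at 0 and 6, or 16.7%, reached 1 FPKM, and the highest was *his-66* at 5.46 FPKM (3.85 to 7.53). The 29 intronless genes with a name of their own had a median of 3.004 FPKM, 21 of them reached 1 FPKM, and 2 were listed at 0, the short genes *his-39* and *his-73*. In the rest of the genome, the 169 protein-coding genes that share an Ensembl name showed the same form, with 71.6% listed at 0 and 9.47% at 1 FPKM or more. How fragments that fit several copies were assigned is not given in the sources used here, so a low value of one of these 36 genes is uncertain. Sequences were not compared, so the same may hold for genes with a name of their own.

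The values of copies under 1 name were also summed, though whether fragments that fit several copies were counted at all was not tested. The H2A copies *his-19*, *his-21*, *his-51* and *his-53* summed to 0.143 FPKM on 1 fragment, and the H2B copies *his-20*, *his-22*, *his-52* and *his-54*, which stand beside them, were all listed at 0. The H3 copies *his-9*, *his-13* and *his-25* summed to 1.07 FPKM on 8 fragments, and the H4 copies *his-10*, *his-14* and *his-26* to 2.46 FPKM on 14 fragments. The H2B copies *his-58* and *his-66* had the highest sum, 6.05 FPKM on 41 fragments.

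Of the 72 genes, 67 stood in 14 groups of neighbours no more than 10 kb apart, and 5 stood alone. The group of *his-59*, *his-60*, *his-61* and *his-62* on chromosome IV, from 7485834 to 7488659, has 1 gene of each core class and summed to 117 FPKM, or 37.6% of the FPKM of all 65 intronless genes. The pair *his-67* and *his-68* on chromosome I, an H4 and an H2A gene from 9988452 to 9989515, summed to 92.5 FPKM, or 29.9%. By contrast, the 13 genes of the largest group, on chromosome II from 13817760 to 13828697, summed to 6.11 FPKM. The 8 genes on chromosome V from 8889488 to 8898539 summed to 1.87 FPKM, and the 6 genes from 8847393 to 8854053 were all listed at 0. Of these 3 groups, 11 of the 13 genes, 6 of the 8 genes and all 6 genes share an Ensembl name with another copy.

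The other groups lay in between. *his-63* and *his-64*, with the H2B gene *his-66* and *his-65*, made up a group on chromosome IV from 11400415 to 11407427 with 29.2 FPKM in all, of which *his-64*, an H4 gene, held 14.1 FPKM (11.2 to 17.5). The 6 genes *his-29* to *his-34* summed to 16.6 FPKM, which came from *his-31* and *his-32* alone, while the H2A and H2B copies on either side of them were listed at 0. *his-45* to *his-48* summed to 15.3 FPKM, mostly from *his-48*. In these groups, 1 or 2 genes carried most of the signal. The genes that carried little of it share an Ensembl name with another copy, so their low values are uncertain.

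The group of *his-5* to *his-8* with *his-39* on chromosome V summed to 9.86 FPKM, led by the H4 gene *his-5* at 4.40 FPKM on 25 fragments. *his-38* and *his-40*, an H4 and an H3 gene on X from 7309564 to 7310520, had 4.05 and 4.14 FPKM on 23 and 31 fragments. *his-1* to *his-4* on chromosome V, from 16040144 to 16042831, summed to 7.44 FPKM on 52 fragments. *his-55* to *his-58* summed to 3.20 FPKM on 30 fragments. No gene of these 4 groups reached 5 FPKM.

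**Figure D3:**
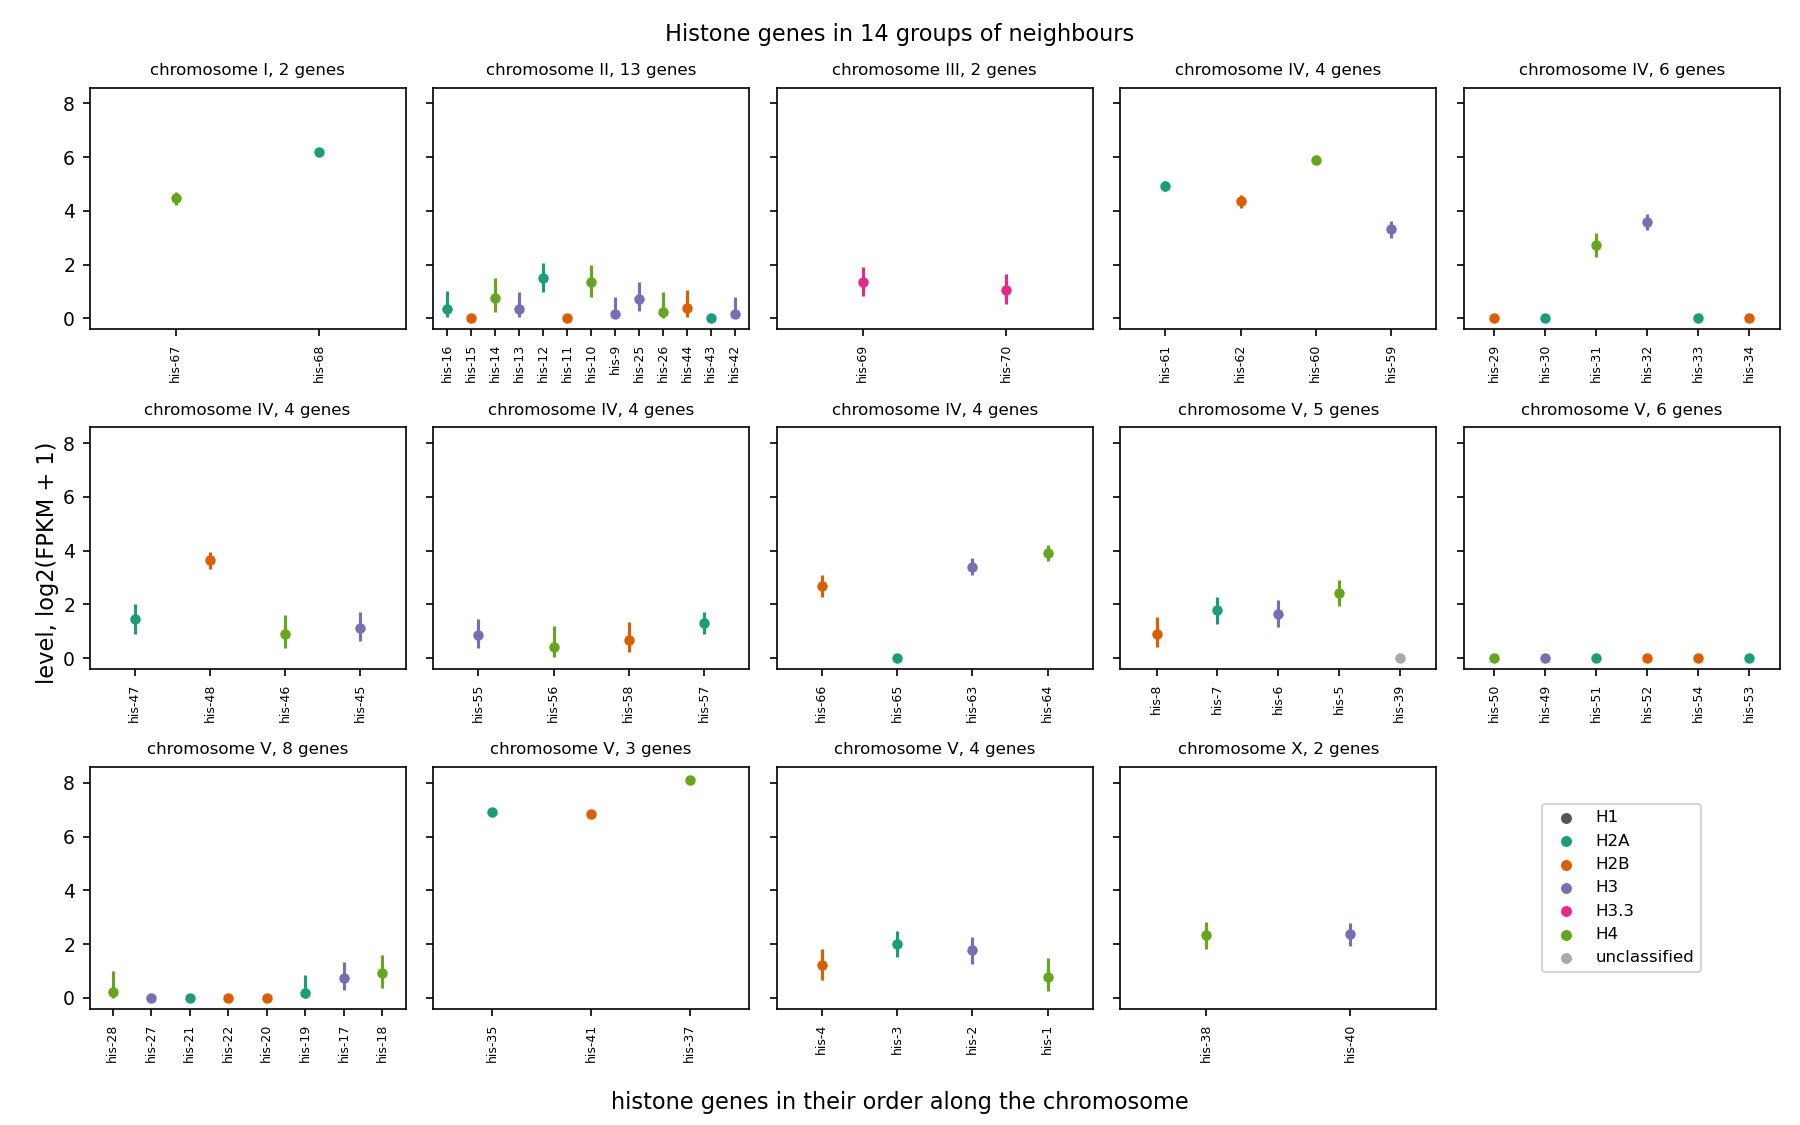
Level of the 67 histone genes with neighbours, as log2(FPKM + 1), in their order along the chromosome in each of the 14 groups. Bars are 95% counting intervals; the 3 genes *his-35*, *his-41* and *his-37* are high together, and in the groups of 13, 6 and 8 genes on chromosomes II and V no gene exceeds 1.86 FPKM, with all 6 of the second listed at 0.

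Within the groups, most histone genes form pairs that are transcribed away from each other, which accounted for 62 of the genes in 31 pairs. There were 16 pairs of an H2A and an H2B gene, with 227 to 327 bases between them, and 14 pairs of an H3 and an H4 gene, with 234 to 321 bases between them. Both genes were above 0 in 6 H2A/H2B pairs, and their intervals were apart in 2 of these. *his-61* was 1.51-fold above *his-62*, whereas *his-48*, the H2B gene, was 6.71-fold above *his-47* at 1.72 FPKM (0.887 to 2.998). Unlike *his-48*, *his-47* shares an Ensembl name with other copies, so its low value is uncertain, and the part of copy assignment in this gap was not tested. Both were above 0 in 12 H3/H4 pairs, and the intervals were apart in 2 of these, in opposite directions. The H4 gene *his-60* was 6.51-fold above the H3 gene *his-59*, while the H3 gene *his-32* was 1.95-fold above the H4 gene *his-31* at 5.63 FPKM (3.85 to 7.95). In the other 10 such H3/H4 pairs the intervals overlapped, and apart from *his-63* and *his-64* these pairs rested on fewer than 40 fragments a gene. Among the H2A/H2B pairs, 5 had both genes listed at 0 and 5 had 1 gene listed at 0, against 1 and 1 of the H3/H4 pairs. Of the 5 H2A/H2B pairs with 1 gene at 0, the intervals were apart in 2. In these, *his-66* had 37 fragments beside *his-65*, and *his-12* had 13 beside *his-11*. Each of these genes shares an Ensembl name with another copy, so the part of copy assignment is open and was not tested. In the pair of mixed class on chromosome I, *his-68* was 3.38-fold above *his-67*.

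**Figure D4:**
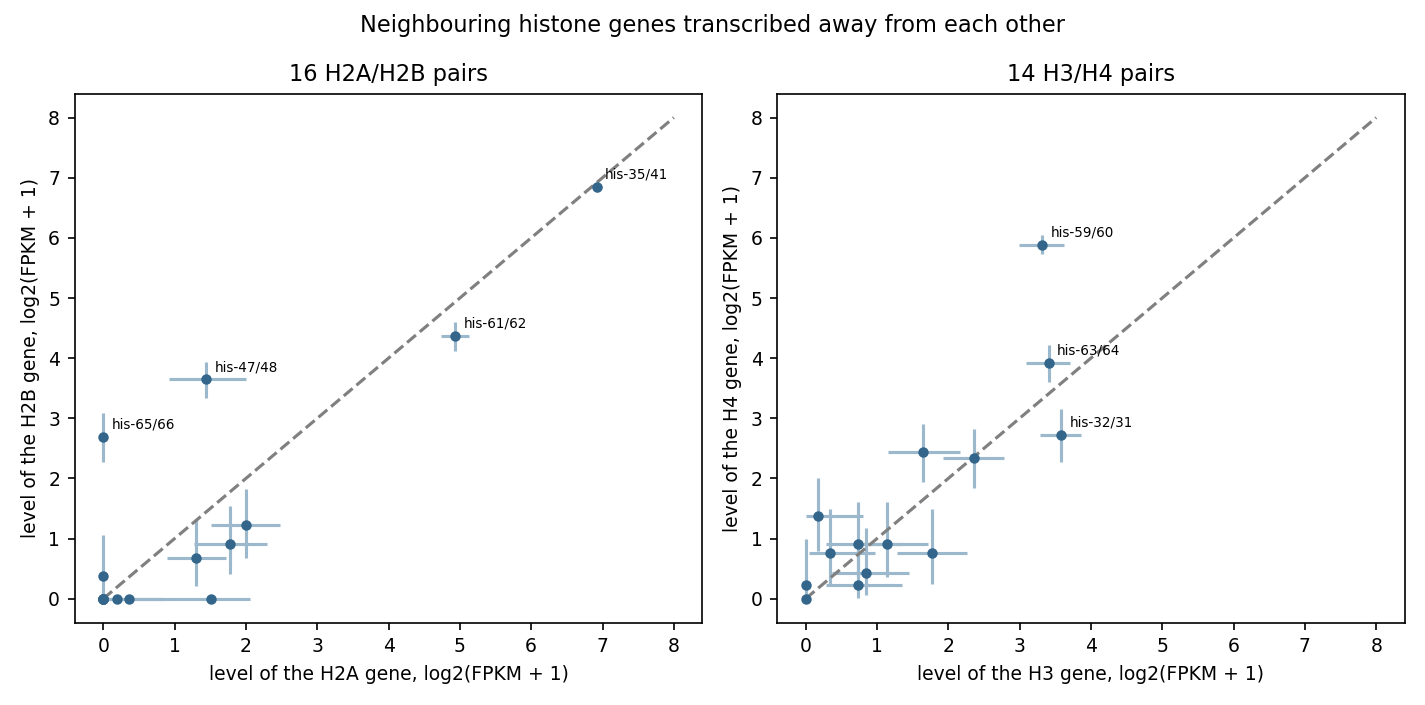
Levels of both genes of 16 H2A/H2B pairs (left) and 14 H3/H4 pairs (right) that are transcribed away from each other, as log2(FPKM + 1), with 95% counting intervals and the line of equal levels. The pairs *his-35* and *his-41*, and *his-63* and *his-64*, lie near the line with overlapping intervals, while *his-59* and *his-60* and *his-47* and *his-48* lie off it. *his-47* shares an Ensembl name with other copies, so its low value is uncertain.

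Histone genes that do not carry the his- name ranged from 0.548 to 898 FPKM. *htz-1*, which encodes the variant H2A.Z, had 898 FPKM (884 to 913), more than any of the 72 members and more than the 309.4 FPKM of the 65 intronless histone genes summed. *hcp-3* and *cpar-1*, which encode H3 variants of the CENP-A type, had 155 FPKM (149 to 160) and 100 FPKM (95.6 to 105). Both were above every H3 gene. The part of RNA selection and of copy assignment in these contrasts with intronless histone genes was not tested. Of the 8 *hil* genes for further linker histones, 6 reached 1 FPKM, with a median of 46.0 FPKM. *hil-4* was highest at 408.2 FPKM (398 to 418), above *his-24*, and *hil-8* and *hil-6* were lowest, at 0.924 and 0.548 FPKM, below the median of all protein-coding genes.

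Most genes that act with histones in S phase were above the median of all protein-coding genes. Of the 29 DNA replication genes found, 28 reached 1 FPKM, with a median of 112 FPKM. *rnr-2*, the small subunit of the ribonucleotide reductase that makes deoxynucleotides, was highest at 708 FPKM, *pcn-1*, the sliding clamp PCNA, had 550 FPKM, and *orc-3*, an origin recognition subunit, was lowest above 0 at 32.4 FPKM. *mcm-3* was listed at 0, whereas its partners in the replicative helicase, *mcm-2*, *mcm-4*, *mcm-5*, *mcm-6* and *mcm-7*, ranged from 111 to 189 FPKM. *cdl-1*, which encodes the protein that binds the stem-loop of histone messages, had 205 FPKM (200 to 210) and was the highest of 6 genes of histone message processing, all over 1 FPKM. The lowest of these was *ego-1*, an RNA-dependent RNA polymerase, at 23.0 FPKM. The intronless histone genes had a median of 0.704 FPKM per gene. Summed by class, their H2A and H4 genes reached 111.9 and 113.0 FPKM, and their H2B and H3 genes 39.7 and 42.1 FPKM. The sums of H2A and H4, over 16 and 15 genes, were close to the median of a single replication gene. Those of H2B and H3 were below it. Most of the H2A sum came from *his-68* and *his-61*, at 71.4 and 29.6 FPKM. Whether polyadenylated RNA was selected is not given, and the part of RNA selection and of copy assignment in these sums was not tested.

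Histone chaperones, which carry histones to and from DNA, had a median of 89.9 FPKM, and all 12 found reached 1 FPKM. *nap-1* was highest at 675 FPKM and *hmg-3*, a subunit of the FACT complex, lowest at 3.40 FPKM. The median was 34.0 FPKM over 13 genes for histone methyltransferases and their partners, from *set-25* at 6.02 FPKM to *set-17* at 140 FPKM, with *mes-6* listed at 0. It was 55.9 FPKM over 12 histone acetyltransferases and deacetylases, from *hda-4* at 10.6 FPKM to *hat-1* at 177 FPKM. These medians describe the lists beside the 1.94 FPKM of all protein-coding genes and were not tested.

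**Figure D5:**
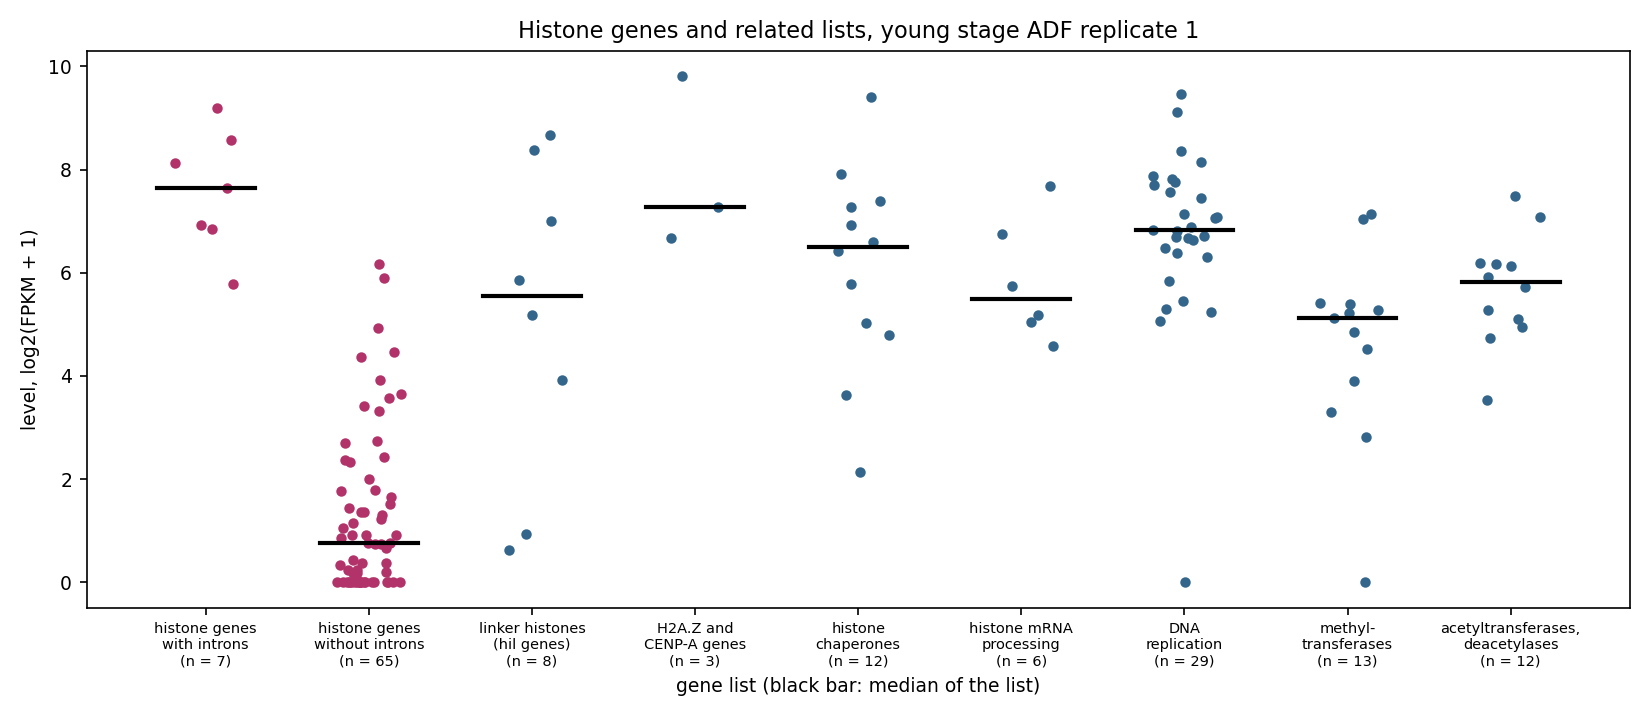
Level of histone genes with and without introns and of 7 related lists, as log2(FPKM + 1), each point a gene and each black bar the median of its list. The intronless histone genes have a median of 0.704 FPKM, and the related lists have medians from 34.0 to 155 FPKM. The part of RNA selection and of copy assignment in this gap was not tested.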

How the data were processed

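RNA of whole worms was sequenced. FPKM was deposited by the authors. According to their methods, reads were aligned with HISAT2 to WBcel235 and FPKM came from Ballgown, while the submitters' processing notes name Bowtie 0.12.2 and StringTie. The annotation release is not given in the sources used here. The labels gave the group and the replicate. The values are not counts, 1 library was analysed, and no test was run.

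Entries were joined by NCBI Gene number to RefSeq (WBcel235) and from there, by sequence name, to the Ensembl annotation, release 115. The 24 mitochondrial entries that name no gene, with 0.103% of the summed FPKM, were left out. The library total was set so that FPKM times exon length became whole fragments. With annotated lengths, the product was whole to within 0.02 in 77.1% of the 6511 protein-coding genes under 40 fragments. For each gene the length nearest to the annotated one, up to 1.6-fold away, that gave whole fragments was kept. It equalled the annotated length for 46 of the 52 histone genes above 0. The exceptions were the 6 intron-containing genes other than *his-74*, and the length of *his-72* was 947 bases, against 638 annotated. That of *his-35* was 729 bases, against 498 annotated, and exceeded the whole annotated gene with its intron. Its 1595 fragments, which would be 1090 at the annotated length, and its interval are therefore uncertain. In 4000 entries tested on simulated data, 98.4% of the fragment numbers were right. Most simulated lengths equalled the annotated ones, where the search starts from the right length, so this share says little about changed lengths. The simulated lengths stayed closer to the annotated ones than the lengths kept for *his-72*, *his-35* and *his-41*. The test therefore does not cover those genes.

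Members and lists were chosen with earlier results of these data known. Given singly were the H3.3 genes, *his-24*, in each class the 3 highest and the 2 lowest above 0, those listed at 0, and of each related list the highest and the lowest. Other genes were named after their values were seen. Classes were to come from product names, which were not used here; instead, a gene was given the class of *his-1* (H4), *his-2* (H3), *his-3* (H2A), *his-4* or *his-11* (H2B) when its coding length was the same. No sequences were used. The scripts used scipy 1.17.1 for intervals, pandas 2.3.3 and numpy 2.4.6 for tables, matplotlib 3.10.9 for plots and Python 3.11.15.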

Additional observations from a re-analysis of the deposited data

How the results depend on the processing

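No paired analysis was possible because a single library was analysed, which also left no replicate to leave out. The alternative of 1 value per distinct protein was not run, since no protein sequences were used. In its place, copies were grouped by Ensembl name, which was chosen after seeing the data, as was leaving out copies or genes with introns.

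The 34 histone genes at 1 FPKM became 52 at 0.1 FPKM and 52 at any FPKM above 0. The number was 37 on the TPM scale, 34 when more than 3 fragments were also required and 28 without genes that share a name. The median of 0.88 FPKM became 2.27 FPKM with 1 value per Ensembl name and 5.02 FPKM without genes that share a name. It was 1.999 FPKM over genes above 0 and 1.04 on the TPM scale.

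With H3.3 counted under H3, the class shares of summed FPKM were 9.72% for H1, 11.4% for H2A, 7.53% for H2B, 52.3% for H3 and 19.1% for H4. By fragments, which favour longer transcripts, they were 14.4%, 9.95%, 6.29%, 57.1% and 12.2% in the same order. By the median per gene they were 98.5%, 0.142%, 0.0739%, 0.689% and 0.612%, since the H1 class holds 1 gene. Without genes with introns, the shares were 36.2% for H2A, 12.8% for H2B, 14.5% for H3 and 36.5% for H4. The H3.3 share of 96.1% became 97.7% by fragments and 91.2% without *his-74*. With annotated lengths, the 23961 fragments became 20907. Depth limits the low genes, since 9 of the 52 above 0 rest on 1 to 3 fragments.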
